A study of Homo sapiens with 6 samples.

Results

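RAB GTPases are small switch proteins of the Ras superfamily that mark the membranes of the secretory and endocytic routes. Each is loaded with GTP by an exchange factor (GEF), recruits effectors such as tethers, motor adaptors and scaffolds, and is switched off by a GTPase-activating protein (GAP). A lipid anchor added by a prenyl transferase and the soluble carrier GDI (GDP dissociation inhibitor) move RABs between membranes and cytosol. In epithelial cancer cells they are known for steering secretion, receptor turnover and the return of adhesion molecules to the surface.

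The members were all probes whose symbol in the array's gene table is RAB, a number, any letters and at most 1 closing digit, which gave 104 of 47231 probes. They covered 74 of the 20046 genes with a symbol on the array. The pattern also took in 11 genes on 16 probes that are not GTPases: the RAB11 family interacting proteins RAB11FIP1 to RAB11FIP5, RAB3GAP1, RAB3GAP2, RAB3IP, RAB3IL1, RAB5IF and the pseudogene RAB9BP1. The other 63 genes, on 88 probes, are RAB GTPases and were sorted by textbook location into early secretory, exocytic, early endosomal, late endosomal and recycling classes, with a class of others.

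The cells were HeyA8-MDR, a drug-resistant subline of the human ovarian cancer line HeyA8. They had received either a control siRNA (siControl, 3 arrays, numbered 1, 2 and 4) or an siRNA against GRAMD1B (siGRAMD1B, 3 arrays, numbered 2, 3 and 4), and RNA was read on Illumina bead arrays. GRAMD1B is a sterol transfer protein of the endoplasmic reticulum. No untreated or drug-treated group is used, the time after transfection and the siRNA sequence are not given in the sources used here, and each group is 1 cell line. Nothing states that arrays of 1 group came from separate cultures, so the p-values measure a spread that may be technical, and a lower signal may mean less RNA per cell or fewer cells that carry it.

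Values are log2 intensities after background correction with an offset and quantile normalization. A log2 difference is siGRAMD1B minus siControl with the standard error (SE) of the limma fit, and a probe was called when its adjusted p over all tested probes was under 0.05. Median raw intensity per array ran from 102.7 to 128.8. Of the defining markers, 5 of 8 carcinoma genes (KRT8, KRT18, KRT7, EPCAM and PAX8) and 3 of 3 mesenchymal genes were above the level filter, while CDH1, KRT19 and MUC16 were below it. Also above it were 3 of 3 endothelial genes and 2 of the 3 leukocyte genes on the array, so passing the filter does not tell these cell types apart. Summed normalized intensity (linear scale) of the 3 leukocyte markers on the array was 227.9 to 257.1 in siControl and 219.5 to 238.2 in siGRAMD1B. Of these, CD3E (mean log2 6.01) and PTPRC (6.18) lay near the floor and CD14 (6.60) was dim. The sum includes the offset carried by each probe. Summed intensity of the 3 endothelial markers was 909.4 to 1107 in siControl and 878 to 957.9 in siGRAMD1B. Most of the endothelial sum came from CDH5. VWF rose near the floor, from 6.12 to 6.50 (limma adjusted p = 0.033), and the mesenchymal CDH2 fell from 12.69 to 12.31 (limma adjusted p = 0.023). The part of these markers in the results was not tested. The GRAMD1B probe read 6.42, 6.41 and 6.57 in siControl, against 6.26, 6.23 and 6.17 in siGRAMD1B. The normalized groups did not overlap, but the raw intensities did, at 109.9 to 139.5 in siControl and 105.3 to 126.3 in siGRAMD1B. The GRAMD1B probe lay near the floor (mean log2 6.34). Its log2 difference, -0.25 ± 0.10 (SE), missed the threshold over all probes (limma adjusted p = 0.15). An exact 2-sided permutation test gave p = 0.1, the smallest that 3 against 3 allows.

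After siGRAMD1B, RAB9A, RAB18 and RAB20 fell and RAB22A and RAB32 rose. RAB11FIP3, an adaptor that binds RAB11 and is not itself a GTPase, rose as well. These were 6 of 81 tested member probes, 7.41%, against 7.09% of all tested probes on the array, so the share called is near the background. In each direction 3 probes were called, against backgrounds of 3.89% for higher and 3.21% for lower. Counting each gene by its brightest probe, 5 of 49 tested GTPase genes were called (10.2%), against 9.43% of all tested genes. Of the 104 probes, 23 did not pass the filter on mean level, and 16 genes had no probe that did. Those were RAB19, RAB33A and RAB6C of the early secretory class, RAB3A, RAB3C and RAB3D of the exocytic class, RAB7B, RAB39A and RAB39B of the late endosomal class, the recycling RAB17, and RAB40A, RAB40AL, RAB42, RAB6D, RAB11FIP4 and RAB9BP1.

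The promoters of the called GTPases that have an entry are shown first. Each line holds the 250 bases before the RefSeq start of the gene (GRCh38.p14, plus strand, 5′ to 3′). Capitals mark the GC box GGGCGG or its reverse complement CCGCCC, the element bound by SP1-family factors. RAB20 is called too and is named only. The windows are chrX:13688878-13689127 for RAB9A, chr10:27504054-27504303 for RAB18, chr20:58309465-58309714 for RAB22A and chr6:146543583-146543832 for RAB32.
RAB9A: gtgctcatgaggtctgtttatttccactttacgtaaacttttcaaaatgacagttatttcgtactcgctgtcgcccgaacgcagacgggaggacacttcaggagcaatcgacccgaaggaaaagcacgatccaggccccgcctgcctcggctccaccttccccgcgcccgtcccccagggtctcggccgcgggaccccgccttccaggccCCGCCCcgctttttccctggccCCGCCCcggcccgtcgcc
RAB18: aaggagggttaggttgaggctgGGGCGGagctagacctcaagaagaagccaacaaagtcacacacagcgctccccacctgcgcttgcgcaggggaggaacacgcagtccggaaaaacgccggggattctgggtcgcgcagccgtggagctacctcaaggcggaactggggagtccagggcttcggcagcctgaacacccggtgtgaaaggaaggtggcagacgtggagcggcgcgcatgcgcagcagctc
RAB22A: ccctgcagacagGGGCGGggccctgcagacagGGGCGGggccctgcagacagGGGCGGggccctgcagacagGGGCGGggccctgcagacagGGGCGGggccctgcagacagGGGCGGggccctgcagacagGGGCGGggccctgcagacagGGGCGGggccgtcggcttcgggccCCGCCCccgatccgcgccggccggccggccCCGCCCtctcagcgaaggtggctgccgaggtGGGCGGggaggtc
RAB32: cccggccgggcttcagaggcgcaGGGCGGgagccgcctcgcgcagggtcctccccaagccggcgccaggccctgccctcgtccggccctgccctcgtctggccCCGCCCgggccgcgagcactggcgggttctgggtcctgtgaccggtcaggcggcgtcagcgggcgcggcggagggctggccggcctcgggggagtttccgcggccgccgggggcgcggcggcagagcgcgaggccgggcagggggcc

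The GC content was 63.6% for RAB9A and for RAB18, 80.8% for RAB22A and 82% for RAB32. The median of 35116 promoter windows was 58%. Whether GC content goes with the direction of change was not tested. There are only 4 windows, and none for RAB20, which also fell. All 4 held a GC box: 2 in RAB9A, 1 in RAB18, 11 in RAB22A and 2 in RAB32. GC boxes are common, since 42.6% of all windows held one, as did 45 of the 59 member genes that have an entry, counting the first start of each. The RAB22A window begins with 8 back-to-back copies of a 20-base unit, ccctgcagacaggggcgggg, and each copy carries a GC box. No window of another gene held that unit repeated. Also searched, on both strands, were the E-box CACGTG, the CCAAT box CCAAT, the cAMP response element TGACGTCA, the AP-1 site TGANTCA and the sterol element TCACNCCAC. None of these letters occurred in the 4 windows, and the shares over all windows were 6.34%, 32%, 1.65%, 6.57% and 0.883%. A match is only a run of letters and a missing match concerns this window alone.

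Late endosomal and lysosomal RABs held the largest fall among the members, that of RAB9A. RAB9A returns mannose 6-phosphate receptors from late endosomes to the trans-Golgi network. Its probe (ILMN_1750409, gene at chrX:13689128-13710504) read 9.01, 8.99 and 8.89 in siControl, against 8.06, 7.99 and 8.08 in siGRAMD1B. The groups lay far apart, and the arrays within each lay close together. The means were 8.97 ± 0.06 and 8.04 ± 0.05 (SD, n = 3), a log2 difference of -0.92 ± 0.10 (SE) or 1.90-fold lower (limma adjusted p = 7.7e-06). The raw intensities, 482 to 571 in siControl and 275 to 333 in siGRAMD1B, did not overlap either. The call held in all 16 alternative settings.

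Its paralogue RAB9B, which shares the RAB9 location, did not pass, with a log2 difference of -0.01 ± 0.10 (SE, limma adjusted p = 0.98). RAB9B read 7.18, 7.42 and 7.23 in siControl and 7.32, 7.30 and 7.18 in siGRAMD1B, and the groups overlapped.

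RAB32 directs enzymes to lysosome-related organelles such as melanosomes and is also found on mitochondria. It rose slightly from a high level: its probe (ILMN_2115434, gene at chr6:146543833-146554953) read 11.05, 11.06 and 10.91 in siControl, against 11.39, 11.25 and 11.40 in siGRAMD1B. The groups did not overlap. The log2 difference was 0.34 ± 0.10 (SE), 1.27-fold (limma adjusted p = 0.045), from 11.01 ± 0.08 to 11.35 ± 0.08 (SD, n = 3). The call ended in 11 of 16 alternative settings, including the removal of any 1 array, where the adjusted p was 0.063 to 0.16. RAB38, its close relative in melanosome transport, had a log2 difference of -0.13 ± 0.11 (SE, limma adjusted p = 0.56).

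RAB7A, which drives late endosomes to fuse with lysosomes, had the brightest of these probes. It read 12.31, 12.18 and 12.31 in siControl, against 12.14, 12.08 and 11.96 in siGRAMD1B. The groups did not overlap, yet the test was not passed, at a log2 difference of -0.21 ± 0.10 (SE, limma adjusted p = 0.26). In the late endosomal class as a whole, 7 of 10 genes were tested, 2 with a positive and 5 with a negative difference. Their median was -0.01, against 0.01 for all tested genes.

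Among early endosomal RABs, RAB22A rose. RAB22A sits on early endosomes and takes part in sorting cargo that enters without clathrin back to the surface. Its probe (ILMN_1786976, gene at chr20:58309715-58367507) read 8.65, 8.67 and 8.73 in siControl and 9.44, 9.54 and 9.33 in siGRAMD1B. Every siGRAMD1B array was above every siControl array by more than the spread within either group. From 8.69 ± 0.04 to 9.44 ± 0.10 (SD, n = 3), the log2 difference was 0.75 ± 0.10 (SE), 1.68-fold (limma adjusted p = 9.5e-05), and it was called in all 16 alternative settings.

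RAB31, also called RAB22B and closest in sequence to RAB22A, works between the trans-Golgi network and endosomes. It fell just outside the threshold. Its level was 11.31, 11.44 and 11.38 in siControl and 11.80, 11.62 and 11.65 in siGRAMD1B, without overlap. The log2 difference was 0.31 ± 0.10 (SE, limma adjusted p = 0.066), and 5 of 16 alternative settings brought it past the threshold.

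The RAB5 proteins, which drive fusion of early endosomes, were not called. RAB5A read 9.86, 9.84 and 9.67 in siControl and 10.07, 9.97 and 9.89 in siGRAMD1B, a log2 difference of 0.19 ± 0.10 (SE, limma adjusted p = 0.34). For RAB5C, the probes gave log2 differences of 0.14 and 0.08, and RAB5B gave -0.12. RAB21, which carries integrins into early endosomes, had a log2 difference of 0.12 (limma adjusted p = 0.57). All 6 genes of the class were tested and 5 had a positive difference, with a median of 0.16. The groups did not overlap for 5 of the 6, where the background over all genes is 28.4%, but only RAB22A was called. Together the endosomal classes held 13 tested genes with 2 called higher and 1 lower, and a median of 0.12. That is 23.1% called, on 3 genes. Over all tested genes 5.71% were called higher and 3.72% lower (9.43% in all), and this difference was not tested. The called RAB20, which also acts in endosomes and fell (log2 difference -0.38), was placed among the other GTPases. It is not counted here, and the endosomal counts and median depend on that placement.

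**Figure D1:**
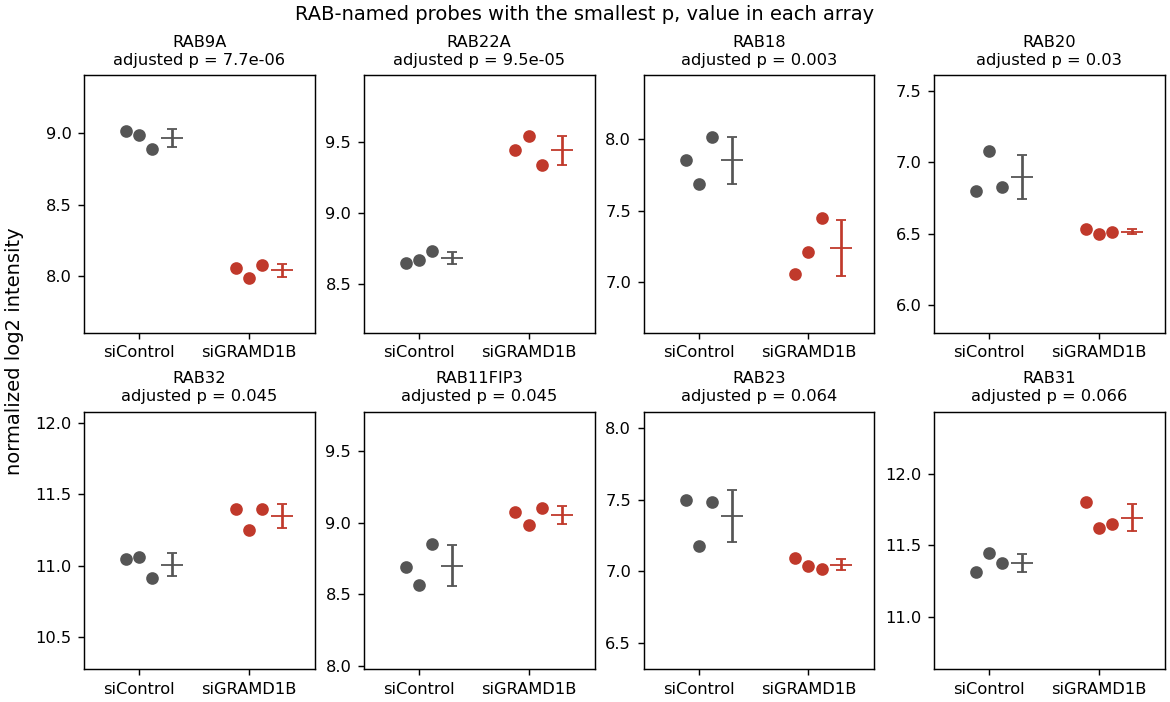
Normalized log2 intensity (y axis) of 8 RAB-named probes in each siControl (grey) and siGRAMD1B (red) array, 3 per group, with the mean and SD beside the points. The y axes have the same span in each panel, are centred on different levels and do not start at 0. The groups do not overlap in any panel, RAB9A shows the widest gap (8.97 to 8.04), and RAB23 and RAB31 lie just outside the threshold.

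Of the secretory RABs, only RAB18 passed the threshold. RAB18 acts at the endoplasmic reticulum and on lipid droplets. Its probe (ILMN_1691143, gene at chr10:27504304-27542239) read 7.85, 7.69 and 8.01 in siControl, against 7.06, 7.21 and 7.45 in siGRAMD1B. The groups did not overlap, but the spread within each was wider than for RAB9A or RAB22A. From 7.85 ± 0.16 to 7.24 ± 0.20 (SD, n = 3), the log2 difference was -0.61 ± 0.12 (SE), 1.53-fold lower (limma adjusted p = 0.0030). The call was lost only with an ordinary test per probe (adjusted p = 0.18).

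RAB1A and RAB1B, which govern transport from the endoplasmic reticulum to the Golgi, were not called. RAB1A read 9.36, 9.29 and 9.40 in siControl and 9.28, 9.25 and 8.86 in siGRAMD1B. Its lowest array was siGRAMD1B replicate 4, and the log2 difference was -0.22 ± 0.11 (SE, limma adjusted p = 0.31). RAB1B had a log2 difference of -0.19 (limma adjusted p = 0.28), with tight groups of 8.32 ± 0.04 and 8.13 ± 0.05 (SD, n = 3).

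RAB6A, which runs retrograde transport through the Golgi, was read by a pair of probes with log2 differences of -0.21 and -0.09 (limma adjusted p = 0.30 and 0.72). The Golgi-associated RAB34 and RAB36 pointed upward, with log2 differences of 0.19 and 0.20 that did not pass. Over the early secretory class, 13 of 16 genes were tested, 7 positive and 6 negative, with a median of 0.03.

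Exocytic RABs bring vesicles to the plasma membrane. None of the 9 tested genes was called (limma), against 9.43% of all tested genes. An unadjusted p under 0.05 was found for 3 of the 9 (RAB3B, RAB8B and RAB27A), against 23.3% of all tested genes. Of the 9 differences, 7 were negative, with a median of -0.13. RAB3B, a RAB of regulated exocytosis, had the lowest of them. It read 7.96, 8.32 and 8.10 in siControl and 7.99, 7.67 and 7.82 in siGRAMD1B, so the groups overlapped, and the log2 difference was -0.30 ± 0.12 (SE, limma adjusted p = 0.15).

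RAB8A and RAB8B, which carry cargo from the Golgi to the surface, had log2 differences of -0.13 and -0.26 (limma adjusted p = 0.55 and 0.25). RAB27A, which docks exosome-bearing endosomes and secretory granules, had 2 of 4 probes above the filter. Their log2 differences were -0.26 ± 0.11 (SE, limma adjusted p = 0.18) and -0.09 ± 0.12 (SE, limma adjusted p = 0.75), and both probes were dim. With the early secretory class, 22 secretory genes were tested, 9 positive and 13 negative. Of these 1 was called (4.55%, against 9.43% of all tested genes), and the median was -0.09.

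Recycling RABs return internalised receptors to the surface. None of the 8 tested genes was called (limma), none had an unadjusted p under 0.05, and for none did the groups separate. Over all tested genes these shares were 9.43%, 23.3% and 28.4%, and with 8 genes whether the class differs from them was not tested. RAB11A, which defines the recycling endosome, read 10.24, 9.83 and 10.24 in siControl and 9.88, 10.24 and 10.08 in siGRAMD1B. Arrays of both groups were intermixed, and the log2 difference was -0.04 ± 0.12 (SE, limma adjusted p = 0.92). RAB4A, of the fast route back from early endosomes, had a log2 difference of 0.07 ± 0.12 (SE, limma adjusted p = 0.81).

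RAB14, which works between the trans-Golgi network and endosomes, had the lowest log2 difference of the recycling class at -0.24 ± 0.13 (SE, limma adjusted p = 0.31). Its siControl arrays alone ran from 7.04 to 7.63. Across the class, differences lay between -0.24 and 0.10 with a median of -0.02. Whether the secretory, endosomal and recycling classes differ from each other was not tested, and their medians of -0.09, 0.12 and -0.02 are descriptions.

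Among GTPases outside these classes, RAB20 fell. RAB20 acts in endosome and phagosome maturation. Its probe (ILMN_1708881, gene at chr13:110523066-110561722) was dim, reading 6.79, 7.07 and 6.82 in siControl, against 6.53, 6.50 and 6.51 in siGRAMD1B. The normalized groups did not overlap, with siControl replicate 2 the highest, whereas the raw intensities did overlap (131, 177 and 159 against 139, 144 and 122). The log2 difference was -0.38 ± 0.10 (SE), 1.30-fold lower (limma adjusted p = 0.030). It was not past the threshold without siControl replicate 2 or without any 1 siGRAMD1B array (adjusted p 0.083 to 0.12), and in 9 of 15 alternative settings in all.

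RAB23, an inhibitor of Hedgehog signalling at the primary cilium, was just outside the threshold with a log2 difference of -0.34 ± 0.11 (SE, limma adjusted p = 0.064). It read 7.50, 7.18 and 7.49 in siControl and 7.09, 7.04 and 7.02 in siGRAMD1B, without overlap. A second, brighter probe gave -0.28 ± 0.10 (SE, limma adjusted p = 0.12). Leaving out siControl replicate 2, the lowest of its group, gave -0.45 with an adjusted p of 0.018 for the first probe, 1 of 3 settings in which it passed. RAB28, a cilium-associated RAB, had log2 differences of -0.22 and -0.08 on its probes (limma adjusted p = 0.22 and 0.72).

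Over all 49 tested GTPase genes, 20 differences were positive and 29 negative, with a median of -0.03 and a range of -0.92 to 0.75. For 17 of them (34.7%) the groups did not overlap, against 28.4% of all tested genes, and 11 (22.4%) had an unadjusted p under 0.05, against 23.3%. Counted by probe, the groups did not overlap for 26 of the 81 tested member probes, against 24.1% of all tested probes.

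**Figure D2:**
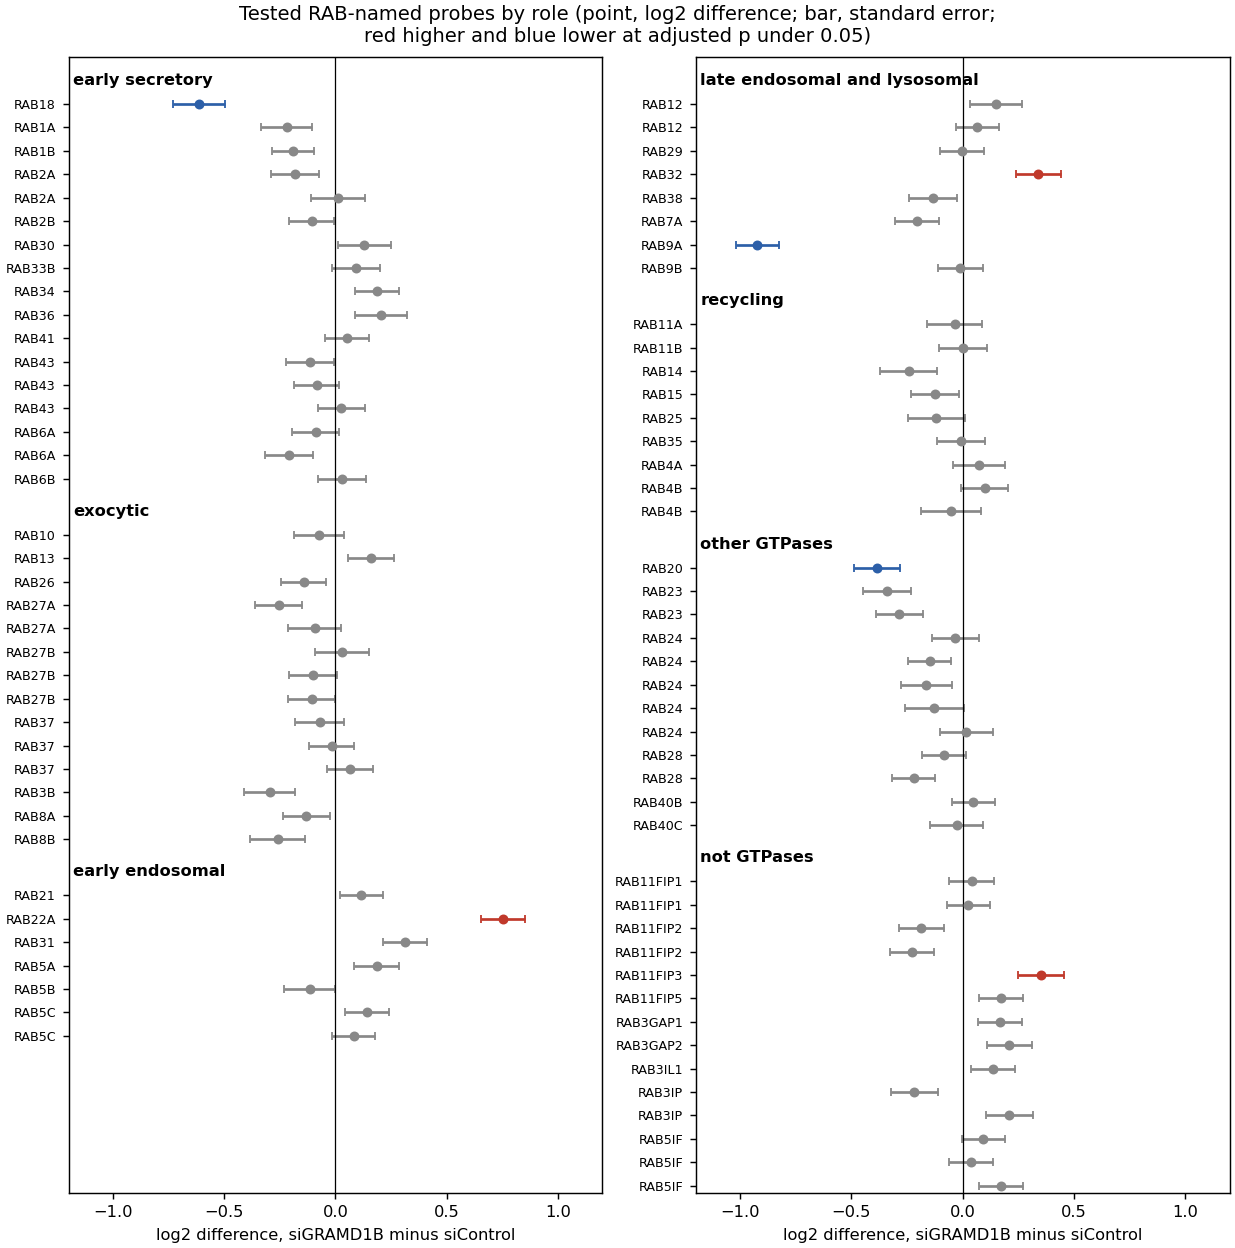
Log2 difference, siGRAMD1B minus siControl (x axis), with its SE for each of the 81 tested RAB-named probes (y axis), grouped by role. RAB9A, RAB18 and RAB20 (blue) lie below 0 and RAB22A, RAB32 and RAB11FIP3 (red) above it, while all recycling probes lie from -0.24 to 0.10.

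RAB11FIP3 carries RAB11 endosomes to the cleavage furrow of dividing cells. It was the only called member that is not a GTPase. Its probe (ILMN_1708328, gene at chr16:425649-523011) read 8.69, 8.57 and 8.85 in siControl and 9.07, 8.99 and 9.10 in siGRAMD1B, without overlap. The log2 difference was 0.35 ± 0.10 (SE), 1.28-fold (limma adjusted p = 0.045). The raw intensities overlapped, at 391 to 555 in siControl and 516 to 619 in siGRAMD1B. The call ended in 10 of 16 alternative settings, among them the removal of siControl replicate 1 or 2 or of any 1 siGRAMD1B array (adjusted p 0.085 to 0.16).

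Its relatives did not pass. RAB11FIP1 gave log2 differences of 0.04 and 0.03, RAB11FIP2 gave -0.23 and -0.19 (limma adjusted p = 0.21 and 0.34) and RAB11FIP5 gave 0.17 (limma adjusted p = 0.36). RAB3GAP2, a subunit of the GAP for RAB3, had 0.21 (limma adjusted p = 0.27). The probes of RAB3IP, also called Rabin8, an exchange factor for RAB8, disagreed: the brighter gave -0.22 and the dimmer 0.21, and neither passed (limma adjusted p = 0.26 and 0.29). Of the 9 tested genes that are not GTPases, 7 differences were positive, with a median of 0.17.

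**Figure D3:**
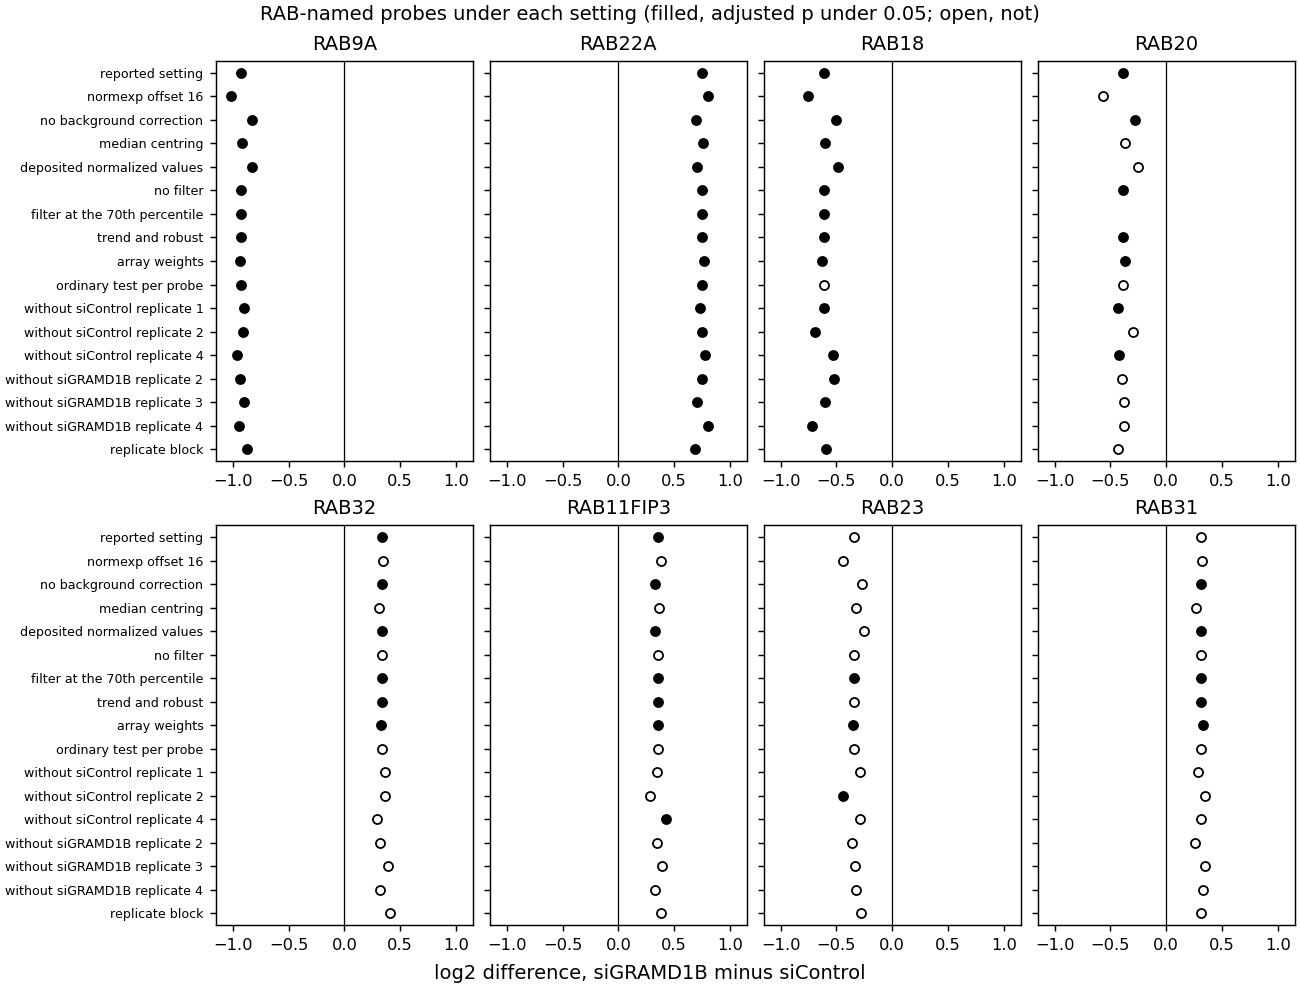
Log2 difference, siGRAMD1B minus siControl (x axis), of 8 RAB-named probes under the reported setting and each alternative (y axis); filled points are past an adjusted p of 0.05 and open points are not, and RAB20 has no point where its probe was not tested. RAB9A and RAB22A are filled throughout, and none of the 8 probes crosses 0.

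The proteins that switch and read RABs were examined as lists, with the brightest tested probe for each gene. Of 131 tested genes on these lists, 12 rose and 2 fell. Both directions together make 10.7%, against 9.43% of all tested genes, which is near the background. By direction, the calls on the lists leaned upward more than those over all tested genes. There 814 rose (5.71%) and 531 fell (3.72%). Whether the split on the lists differs from that was not tested. The lists share RAB3IP, RAB3IL1, RAB3GAP1, RAB3GAP2 and the RAB11 interacting proteins with the members above, so RAB11FIP3 is 1 of the 12.

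Exchange factors load RABs with GTP. Of 39 tested, 4 rose and 1 fell in the limma fit (12.8% called, against 9.43% of all tested genes), with a median of -0.01. An unadjusted p under 0.05 was found for 13 (all tested genes, 23.3%). Whether the list differs from these shares was not tested. DENND5A, a DENN domain protein that binds RAB6, rose on both of its probes, by log2 differences of 0.76 ± 0.11 and 0.81 ± 0.10 (SE, limma adjusted p = 0.00021 and 6.5e-05). The brighter probe read 9.13, 8.93 and 9.04 in siControl and 9.65, 9.97 and 9.76 in siGRAMD1B, so all siGRAMD1B arrays were higher.

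Exchange factors of the DENND2 family, which act on RAB9, were called in opposite directions. DENND2A read 8.55, 8.61 and 8.71 in siControl and 9.20, 9.47 and 9.39 in siGRAMD1B, a log2 difference of 0.73 ± 0.10 (SE, limma adjusted p = 0.00022). DENND2C, which is dimmer, read 7.11, 7.32 and 7.21 in siControl and 6.71, 7.06 and 6.74 in siGRAMD1B, a log2 difference of -0.38 ± 0.11 (SE, limma adjusted p = 0.046). Raw intensities of DENND2C overlapped (153, 202 and 198 in siControl, against 152, 194 and 135 in siGRAMD1B). The DENND2C call ended in 11 of 16 alternative settings. Those included the removal of any 1 array other than siGRAMD1B replicate 3 (adjusted p 0.063 to 0.20).

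TRAPPC5, a core subunit of the TRAPP complex that activates RAB1, rose with a log2 difference of 0.75 ± 0.11 (SE, limma adjusted p = 0.00031), from 9.44 ± 0.19 to 10.19 ± 0.08 (SD, n = 3). RGP1, a subunit of the exchange factor for RAB6A, rose from near the floor with a log2 difference of 0.39 ± 0.10 (SE, limma adjusted p = 0.017). The RGP1 call ended in 4 of 15 alternative settings, among them the removal of siGRAMD1B replicate 2 or replicate 3 (adjusted p = 0.070 and 0.069). The calls of DENND5A, DENND2A and TRAPPC5 ended only with the ordinary test per probe (adjusted p = 0.092, 0.078 and 0.10).

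GAPs switch RABs off. Of 32 tested, 2 rose and 1 fell in the limma fit, with a median of -0.0006. The share called, 9.38%, is near the 9.43% of all tested genes. An unadjusted p under 0.05 was found for 7 (all tested genes, 23.3%). TBC1D10B, a GAP for RABs that include RAB35 and RAB27A, read 7.27, 7.16 and 7.20 in siControl and 7.94, 7.89 and 7.99 in siGRAMD1B. Its groups were tight and well apart, with a log2 difference of 0.73 ± 0.10 (SE, limma adjusted p = 0.00010), and the call held in all 16 alternative settings.

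TBC1D2B, a TBC domain protein, rose with a log2 difference of 0.50 ± 0.12 (SE, limma adjusted p = 0.012). Its raw intensities overlapped, at 460 to 687 in siControl and 667 to 964 in siGRAMD1B. The TBC1D2B call ended in 6 of 16 alternative settings. Those included the removal of siControl replicate 1 or siGRAMD1B replicate 3 (adjusted p = 0.054 and 0.080). RABGAP1L, also of the TBC domain family, fell with a log2 difference of -0.47 ± 0.11 (SE, limma adjusted p = 0.011). Its raw intensities overlapped, at 227 to 335 in siControl and 180 to 263 in siGRAMD1B. The RABGAP1L call ended in 4 of 16 alternative settings, among them the removal of siGRAMD1B replicate 4 (adjusted p = 0.066).

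The machinery of prenylation and membrane extraction gave 0 calls among 6 tested genes with limma (all tested genes, 9.43%), and 1 gene had an unadjusted p under 0.05 (all tested genes, 23.3%). That gene was RABGGTB, the catalytic subunit of the RAB geranylgeranyl transferase, with a log2 difference of -0.32 ± 0.11 (SE, limma adjusted p = 0.11). It was past the threshold with array weights and without siControl replicate 4 (adjusted p = 0.0495 and 0.039).

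Effectors read the GTP-bound RAB. Of 33 tested, 5 rose and 0 fell in the limma fit (15.2% called). Over all tested genes 5.71% were called higher and 3.72% lower (9.43% in all), and this difference was not tested. In either direction 10 had an unadjusted p under 0.05 (all tested genes, 23.3%), and the median was 0.06. BICD2, an adaptor that links RAB6 vesicles to dynein, had the largest difference on these lists. It read 9.25, 9.32 and 9.27 in siControl and 10.72, 10.42 and 10.60 in siGRAMD1B, where every array was above every siControl array. The log2 difference was 1.30 ± 0.10 (SE), 2.46-fold higher (limma adjusted p = 3.1e-07), and held in all 16 alternative settings. A second BICD2 probe was too dim to be tested.

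GOLGA2 (GM130), a cis-Golgi matrix protein that binds RAB1, rose with a log2 difference of 0.52 ± 0.10 (SE, limma adjusted p = 0.0031). MLPH (melanophilin), which ties RAB27A to myosin Va, rose by 0.47 ± 0.10 on the log2 scale (SE, limma adjusted p = 0.0076) from a level near the floor, 6.26 ± 0.05 (SD, n = 3). Both calls ended with the ordinary test per probe (adjusted p = 0.0765 for GOLGA2 and 0.10 for MLPH) and with the replicate block (0.094 and 0.11). MYO5C, a class V myosin, rose by 0.39 ± 0.11 on the log2 scale (SE, limma adjusted p = 0.037). It too was dim, with a siControl mean of 6.46. Its raw intensities overlapped, at 112 to 135 in siControl and 128 to 185 in siGRAMD1B. The MYO5C call ended in 10 of 15 alternative settings. Those included the removal of any 1 array other than siGRAMD1B replicate 4 (adjusted p 0.052 to 0.17).

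Tethers and the retromer hold or sort RAB-marked membranes. Of 21 tested, 1 rose and 0 fell in the limma fit (4.76% called, against 9.43% of all tested genes). An unadjusted p under 0.05 was found for 4 (all tested genes, 23.3%), and the median was 0.06. The gene that rose was VPS18, a core subunit shared by the endosomal tethers HOPS and CORVET, with a log2 difference of 0.47 ± 0.10 (SE, limma adjusted p = 0.0087). Its call ended in 4 of 16 alternative settings, among them the removal of siControl replicate 1 or siGRAMD1B replicate 4 (adjusted p = 0.053 and 0.057). The exocyst subunit EXOC7 had a log2 difference of 0.26 that did not pass (limma adjusted p = 0.13).

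**Figure D4:**
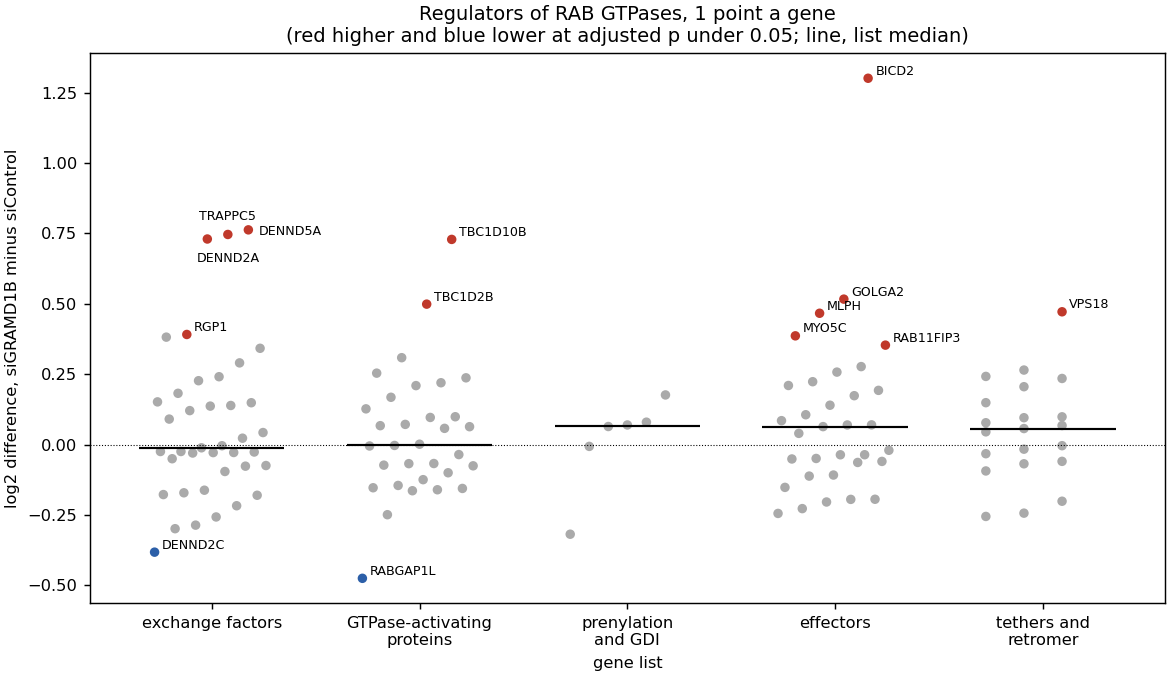
Log2 difference, siGRAMD1B minus siControl (y axis), of each tested gene on 5 lists of RAB regulators (x axis), with the list median as a line; red points rose and blue points fell at an adjusted p under 0.05. BICD2 stands highest at 1.30, RABGAP1L lowest at -0.47, and the list medians run from -0.01 to 0.07.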

How the data were processed

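Per the labels' protocols, Illumina bead arrays were hybridised with biotin cRNA made from total RNA. The submitters' processing notes name BeadStudio. The authors deposited an intensity table, linear and neither normalized nor background-subtracted as far as its values show, and a table of log2 values with 1 common distribution (median 6.86), normalized by a method that the sources used here do not give. The intensity header was shifted by 1 name and was realigned. Each array then ranked probes like its own column of the log2 table (Spearman's rho 1.00, at most 0.85 for any other). No columns of other samples were present (0). No detection p-values were used.

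Intensities were corrected by normexp with an offset of 50, quantile normalized and log2 transformed (limma 3.58.1, R 4.3.3), which understates changes of dim probes. Probes with a mean log2 value above the 40th percentile (6.16) were tested, 28338 of 47231, by lmFit and eBayes over all 6 arrays, 2-sided, with Benjamini-Hochberg adjustment over all of them and a threshold of 0.05. No depth exists for arrays; their number limits the precision. Symbols came from the platform annotation (30113 probes had 1 symbol, 8 several, 17110 none), and 30074 were matched to RefSeq by Entrez identifier, with 0 symbols changed. Genes were counted by their brightest tested probe. Gene coordinates and promoters are RefSeq's (GRCh38.p14). 59 of 74 member genes had a promoter entry.

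The members, classes, regulator lists and the rule for named genes (called members, reference GTPases, paralogues of called members, genes whose probes disagree, the 5 genes of lowest p in each regulator list, GRAMD1B) were chosen with earlier results of these data known. RAB21, RAB23, RAB28, RAB31 and other members outside that rule were named after their values were seen. Alternatives were another offset, no correction, median centring, the deposited log2 values, other filters, other variance models, a replicate block and leaving out each array.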

Additional observations from a re-analysis of the deposited data

How the results depend on the processing

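The count of called probes was 2010 of all tested probes, 6 of the RAB-named probes and 14 of the regulator genes. With a normexp offset of 16 these became 683 (449 higher and 234 lower, a higher share of 65.7% in place of 54.8%), 3 and 9. Median centring gave 1022, 3 and 8, and an ordinary probe-wise test gave 256, 2 and 3. With the replicate block, whose shared numbers 2 and 4 are not known to pair samples (correlations of deviations 0.02 and -0.15), the counts were 987, 3 and 7. Leaving out each array in turn gave 1168 to 2138, 3 to 5 and 9 to 15. The cause was not tested. Testing every probe left 4 called RAB-named probes.

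All 6 called RAB-named probes kept their direction in every setting in which they were tested, and 2 (RAB9A and RAB22A) kept the call in all of them. Of 13 called regulator probes, all 13 kept their direction and 2 (BICD2 and TBC1D10B) kept the call throughout. RAB9B, near 0, turned positive with median centring (0.018) and array weights (0.013). With arrays left out in turn, some uncalled probes changed sign: RAB9B ran from -0.059 to 0.060, RAB27A (dimmer tested probe) from -0.19 to 0.017, RAB11A from -0.17 to 0.057, RAB4A from -0.018 to 0.20, RAB5B from -0.22 to 0.0036, RAB11FIP1 from -0.012 to 0.081 and from -0.0047 to 0.062, RABIF from -0.028 to 0.14, and RABAC1 from -0.040 to 0.17. Low signal over background limits the 23 untested probes and dim ones such as RAB20.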
